A study of Homo sapiens with 21 samples.

Results

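RS4;11 is an established human cell line from a precursor B lymphoblastic leukaemia with fused KMT2A and AFF1 genes. It was examined here in its unstarved state, with RNA level set against histone H3 lysine 4 trimethylation (H3K4me3) at the 5′ ends of genes. The material was 6 of the 21 samples of the series: the 3 RNA libraries and the 3 H3K4me3 ChIP-seq libraries of cells kept for 24 h in complete medium, with asparagine (+Asn) and with neither ferric nitrate nor hinokitiol. The other 15 samples (asparagine-free media with or without added iron, and the inputs) entered no comparison. All libraries came from 1 cell line, the labels do not say whether those of a group were separate cultures, and no label ties an RNA library to a chromatin library. The 19896 protein-coding genes on chromosomes 1 to 22 and X, of 66738 annotated genes, were followed through both readouts.

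H3K4me3 is laid down around the starts of active genes by the SET1 and KMT2 methyltransferases, often over stretches rich in the dinucleotide CpG, to which subunits of these enzymes bind. In leukaemias with a KMT2A rearrangement the fusion protein keeps the CpG-binding amino end of KMT2A and brings transcription elongation factors and the H3K79 methyltransferase DOT1L to a set of genes, the posterior HOXA genes and MEIS1 among them. Unusually wide H3K4me3 domains are known from many tissues as a feature of genes of cell identity, and the KMT2A-AFF1 protein has been described as spreading over wide stretches of some of its targets. The gene count of KMT2A or AFF1 cannot tell the fusion transcript from that of the intact gene.

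A region below is a stretch in which the authors merged the peaks called in their H3K4me3 libraries, its covered width is the summed length of the peaks that 1 library had there, and a gene held a region when all 3 complete-medium libraries had a peak in a region reaching within 1 kb of the gene's outer 5′ end. The table holds positions only, so width was measured and peak height was not. The table used here may not hold every region, so a gene without a region is one with none listed, and shares of genes with a region may be too low. RNA is given as TPM, a transcript's share of all transcripts after division by length, computed here from the deposited counts and exonic lengths. Values after ± are SDs over 3 libraries (n = 3). RNA libraries summed to between 39155120 and 40988303 counts, H3K4me3 libraries held between 15773 and 16215 peaks covering 25.1 to 26.2 Mb, and 14220 of the authors' 19279 regions were called in all 3 complete-medium libraries.

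The sequences of 5 gene starts are shown because CpG content differed between starts with and without a region, as described further on. Each is the 250 bases upstream of a RefSeq start (GRCh38.p14), read 5′ to 3′ along the gene's strand, with every CG in capitals. MEIS1 (chr2:66434875-66435124, plus strand) and PAX5 (chr9:37034269-37034518, minus strand) lie in 2 of the widest regions, SOX6 (chr11:16738478-16738727, minus strand) held a region with almost no RNA, FCRLA (chr1:161706979-161707228, plus strand) had RNA without a region, and ALB (chr4:73404037-73404286, plus strand) had neither.
MEIS1: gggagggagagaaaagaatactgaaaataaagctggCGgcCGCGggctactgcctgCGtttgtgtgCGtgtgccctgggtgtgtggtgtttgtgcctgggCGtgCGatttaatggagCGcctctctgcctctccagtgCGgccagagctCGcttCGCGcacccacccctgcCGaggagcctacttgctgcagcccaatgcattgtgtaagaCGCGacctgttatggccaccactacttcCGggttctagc
PAX5: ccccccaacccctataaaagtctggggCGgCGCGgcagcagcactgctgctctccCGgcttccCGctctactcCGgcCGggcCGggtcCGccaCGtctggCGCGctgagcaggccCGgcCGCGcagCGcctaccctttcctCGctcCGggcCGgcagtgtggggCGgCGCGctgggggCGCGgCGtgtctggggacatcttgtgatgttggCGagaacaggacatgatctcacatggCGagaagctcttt
SOX6: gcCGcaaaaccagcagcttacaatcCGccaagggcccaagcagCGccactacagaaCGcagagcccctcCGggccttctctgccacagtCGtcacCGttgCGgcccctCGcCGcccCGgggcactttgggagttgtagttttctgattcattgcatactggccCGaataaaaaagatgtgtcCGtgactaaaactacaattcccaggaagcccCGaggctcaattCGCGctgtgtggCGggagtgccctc
FCRLA: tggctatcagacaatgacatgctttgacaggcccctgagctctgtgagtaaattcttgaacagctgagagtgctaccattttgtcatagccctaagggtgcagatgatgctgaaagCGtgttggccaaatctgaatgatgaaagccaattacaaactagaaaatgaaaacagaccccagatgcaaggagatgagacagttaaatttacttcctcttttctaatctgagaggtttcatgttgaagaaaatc
ALB: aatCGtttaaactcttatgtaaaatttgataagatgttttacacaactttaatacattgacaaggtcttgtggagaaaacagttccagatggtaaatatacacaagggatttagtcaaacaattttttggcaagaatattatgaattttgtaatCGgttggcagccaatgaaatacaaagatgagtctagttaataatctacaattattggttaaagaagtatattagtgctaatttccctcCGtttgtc
These stretches hold 16, 27, 17, 1 and 3 CG in the order shown. MEIS1 gave 55.7 ± 0.538 TPM, PAX5 337 ± 13.3, SOX6 0.0473 ± 0.0251, FCRLA 6.52 ± 0.370 and ALB 0.163 ± 0.118, so SOX6, with the least RNA of these genes, stood with PAX5 and MEIS1 in CG content and in holding a region.

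The 2 readouts first served to check the label. Precursor B cell genes were abundant: IGLL1, part of the surrogate light chain of the pre-B receptor, had 1044 ± 130 TPM, CD79A, its signalling chain, had 528 ± 13.6 TPM, and DNTT, the terminal transferase of V(D)J joining, had 192 ± 6.03 TPM. MME, the gene of CD10, was at 0.288, 0.0387 and 0.106 TPM in libraries 1, 2 and 3, and CD34 at 0.901, 0.808 and 0.786 TPM, with no region at either. Loss of CD10 is a usual feature of KMT2A-rearranged precursor B leukaemia. MS4A1 (CD20) of mature B cells was at 0.00637 ± 0.0110 TPM, CD3E of T cells and GATA1 of erythroid cells had 0 counts in all 3 libraries, and MPO of myeloid cells was at 0.710 ± 0.208 TPM, none of them with a region. Some other markers of mature B, T and myeloid cells had more RNA, as described further on.

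Most coding genes fell into agreement between the readouts. A region was held by 10857 of 19896 coding genes (54.6%) and a mean of at least 1 TPM by 10481 (52.7%). Of genes at or above 1 TPM, 9175 of 10481 (87.5%) held a region, against 1682 of 9415 (17.9%) of the genes below it. The median RNA level was 21.2 TPM for genes with a region, 0.464 TPM for the 172 genes whose region was called in 1 or 2 libraries, and 0.0174 TPM for the 8867 with none.

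The share of genes with a region climbed steeply at low RNA levels and little thereafter. It was 11.4% below 0.1 TPM, 42.1% from 0.1 to 1 TPM, 75.5% from 1 to 10 TPM, 90.0% from 10 to 30 TPM, 92.3% from 30 to 100 TPM and 94.7% from 100 TPM. In the lowest bin each library gave between 11.6% and 11.98%, and in the highest between 94.87% and 94.93%, so the bins differed by far more than the libraries did. Width kept growing where presence had levelled off, from a median of 1591 bp at 1 to 10 TPM to 1866, 2108 and 2499 bp in the next 3 bins.

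**Figure D1:**
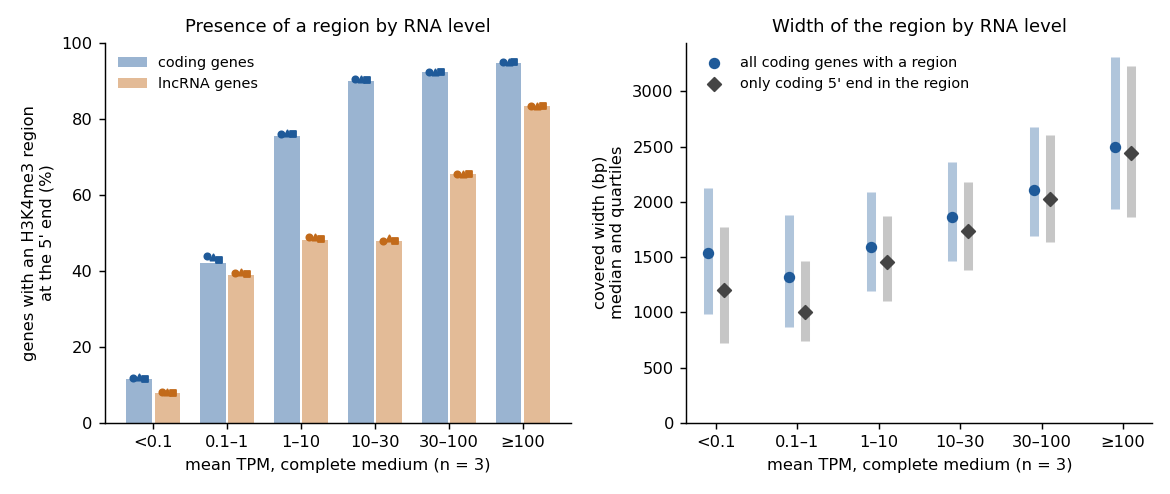
Left, the percentage of coding and lncRNA genes that held a region, by mean TPM bin (bars, region in all 3 libraries; small markers, each library alone); right, the covered width in bp (points, medians; thick lines, quartiles) for coding genes with a region and for those that are the only coding 5′ end in theirs. The coding bars pass from 11.4% to 94.7%, and above 1 TPM the median width climbs from 1591 to 2499 bp.

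Below 1 TPM the widths did not follow that order: regions of genes under 0.1 TPM had a median of 1540 bp, more than the 1322 bp at 0.1 to 1 TPM. Regions often span several genes, and 3214 of the 10857 genes shared theirs with another coding 5′ end. Among the 7643 genes that were the only coding 5′ end of their region, the medians were 1201 bp below 0.1 TPM and 1006 bp at 0.1 to 1 TPM, and then 1460, 1734, 2022 and 2438 bp.

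Across the 10857 genes with a region, TPM and covered width had a Spearman's rho of 0.413 and a Pearson's r of 0.41 on the log2 scale, a description across genes, which are not independent replicates and can share a region. Each of the 9 pairings of 1 RNA with 1 H3K4me3 library gave a rho between 0.407 and 0.414. Read the other way, median RNA was 0.304 TPM for the 196 genes with regions under 500 bp, 16.2 TPM at 1 to 2 kb, 32.3 TPM at 2 to 3 kb, 52.1 TPM at 3 to 4 kb, 59.7 TPM at 4 to 6 kb and 88.4 TPM at 6 to 10 kb. All 20 genes with regions of 10 kb or more had at least 1 TPM, with a median of 97.1 TPM, but the quartiles of 49.0 and 170 TPM show how loosely width fixed the level of a single gene.

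The added width lay mainly on the side of the gene body. At the 5′ end itself 90.7% of genes at or above 100 TPM were covered by a peak, at 1 kb into the gene 87.6% ± 0.406, at 2 kb 35.5% ± 0.801 and at 3 kb 13.8% ± 0.559. At 1 kb upstream the share was 28.8% ± 1.13. For genes of 1 to 10 TPM the shares were 66.8% at the 5′ end, 36.4% at 1 kb inside, 7.71% at 2 kb inside and 16.6% at 1 kb upstream. In genes that were the only coding 5′ end of their region, the median reach into the gene was 969 bp at 1 to 10 TPM and 1760 bp from 100 TPM, while the upstream reach was 439 and 615 bp. Across these 7643 genes rho with TPM was 0.489 for the downstream and 0.194 for the upstream reach, and 88.3% of them reached farther downstream than upstream. All distances run from the outermost annotated 5′ end, and any other annotated start of a gene lies inside it. The lean toward the gene body can thus be partly built into the measure, and how much was not tested.

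**Figure D2:**
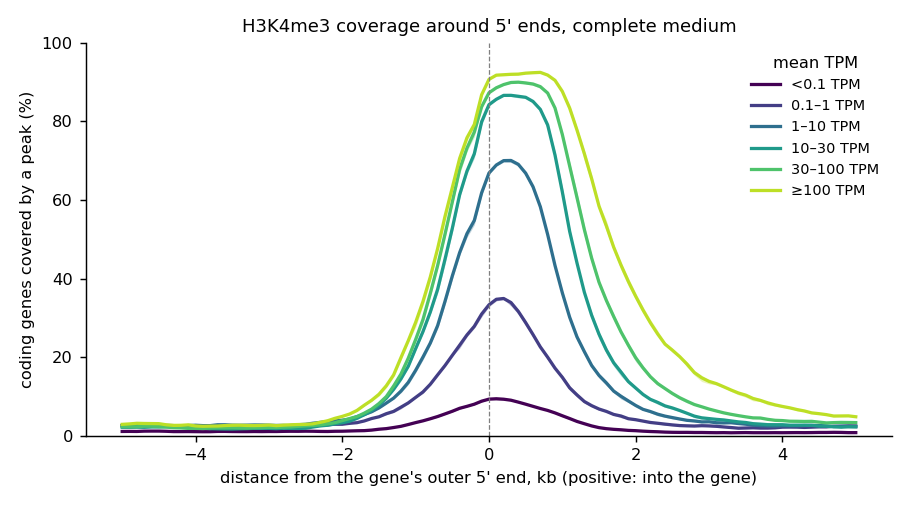
Percentage of coding genes covered by an H3K4me3 peak (y axis) at each distance in kb from the outer 5′ end (x axis, positive into the gene) in 6 bins of mean TPM; lines are means of 3 libraries and shading their range, which is narrower than the lines in most places. The curves stay apart farther out on the gene-body side, where at 2 kb the highest bin stands at 35.5% and the lowest at 1.30%. At 2 kb upstream the same bins stand at 4.93% and 1.16%.

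The 5 widest regions lay at or in genes of the fusion's target set or, for PAX5, a B-lineage regulator, and the next 5 at genes outside both lists. The widest of all, chromosome 7 from 27147590 to 27174990 (hg38), was a single peak in each library, of 27043, 27008 and 26919 bp. It takes in, or reaches within 1 kb of, the 5′ ends of HOXA3, HOXA6, HOXA7 and HOXA9, homeobox factors that keep blood progenitors immature, and a RefSeq start of HOXA10. The libraries lay close together (26990 ± 63.9 bp) and none came near the next widest region, inside MEF2C, with 18613, 18903 and 17763 bp.

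RNA in the HOXA cluster was highest over this domain and, with the exception of HOXA5, low on both sides of it. HOXA7 had 106, 127 and 114 TPM, HOXA9 had 100.02, 107 and 102 TPM, and HOXA10 had 73.2, 50.5 and 58.5 TPM, in libraries 1 to 3. HOXA6 and HOXA3, in the same domain, gave less, 20.6 ± 1.23 and 10.1 ± 1.10 TPM. HOXA10 varied most between libraries, and its range does not meet that of HOXA9. Because reads in exons shared by neighbouring HOXA transcripts may not have been assigned, the order within the domain is less certain than the contrast with its flanks.

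On the HOXA11 side RNA dropped to 0.335 ± 0.0459 TPM for HOXA11 and 0.0608 ± 0.0757 TPM for HOXA13, yet both held a narrow region, of 928 ± 186 and 1227 ± 48.1 bp. On the other side HOXA4 and HOXA2 had 2.55 ± 0.452 and 2.36 ± 0.407 TPM with none. HOXA5 stood apart with 37.0, 34.8 and 36.5 TPM and no region within 1 kb: its 5′ end lies 3909 bp from the edge of the wide domain. HOXA11 and HOXA13 on one side, and HOXA5 on the other, thus give both kinds of mismatch within 1 cluster.

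MEIS1, the cofactor of HOXA9 (ENSG00000143995.20, chromosome 2, 66433452 to 66573869), had a region of 16869, 17323 and 16472 bp and 56.2, 55.6 and 55.2 TPM. CDK6, the cell cycle kinase (ENSG00000105810.9, chromosome 7, 92604921 to 92836594), had 16558, 15928 and 15494 bp and 795, 804 and 797 TPM. The regions of these genes overlap in size between libraries, while RNA of CDK6 was far above that of MEIS1 in every library. JMJD1C, a demethylase-like cofactor, held 11465 ± 127 bp with 164 ± 6.12 TPM, and ZEB2, a zinc finger repressor, 10650 ± 136 bp with 52.6 ± 2.09 TPM. MEF2C and RUNX1, transcription factors with 318 ± 0.988 and 178 ± 1.10 TPM, had no region at the outer 5′ end, but regions of 18426 ± 592 and 11670 ± 243 bp lay at one of their RefSeq starts.

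The list of 28 genes reported as KMT2A fusion targets was read as a whole. At the outer 5′ end 24 of 28 held a region, against 54.6% of all coding genes and 87.5% of those at or above 1 TPM. In presence the list was thus near genes with RNA in general. Of the 28, 19 held one of at least 4 kb (2.61% of all coding genes did), in 16 separate regions, since 4 HOXA genes share one. With RefSeq starts added the counts were 27 and 23, for which no share over all coding genes is given. HOXA5, with no RefSeq start in the table, was the one left without. The list's median was 58.2 TPM and 7326 bp, against 1.77 TPM over all coding genes and 1892 bp over those with a region. RNA reached 1 TPM in 27 of 28, HOXA11 being the exception. The members were chosen with earlier results of these data known, so the counts describe the list and were not tested.

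At like RNA levels the fusion targets still had wide regions. Of the 10 list genes at 30 to 100 TPM with a region, 7 were at 4 kb or wider, against 164 of 3036 coding genes in that bin (5.40%). Of the 8 at 100 TPM or more, all 8 were, with HOXA7 and HOXA9 in the same region, against 188 of 1421 (13.2%). Shares above those of all coding genes were not particular to this list. At 100 TPM or more, 9 of 19 precursor B markers and 2 of 2 immediate early genes were at 4 kb or wider. At 30 to 100 TPM, 2 of 4 immediate early genes were. Other lists lay lower, with 2 of 66 ribosomal protein genes at 100 TPM or more. The 5 fusion targets with a region under 4 kb at the outer 5′ end were LMO2, a haematopoietic adaptor with 38.0 ± 4.20 TPM and 606 bp, LGALS1, which encodes a galectin, with 24.2 ± 2.31 TPM and 1231 bp, RUNX2 with 2783 bp, SENP6 with 3504 bp and HOXA11 with 928 bp. With RefSeq starts added the count at 4 kb or more was 23, so a gene narrow here can have a wide region at a RefSeq start.

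**Figure D3:**
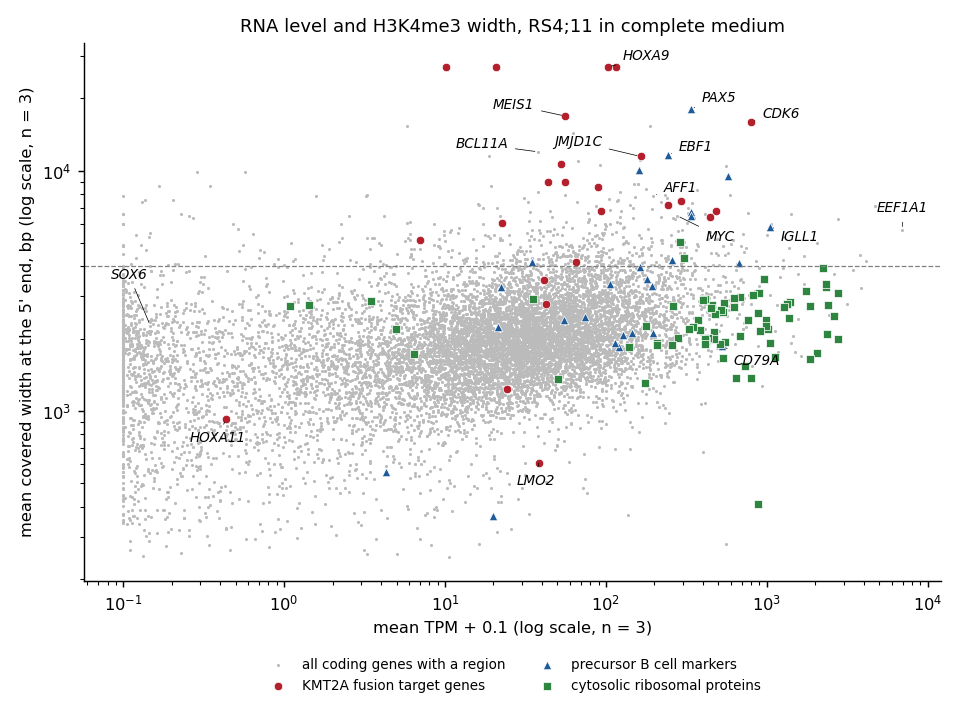
Mean covered width at the outer 5′ end (y axis, bp, log scale) against mean TPM + 0.1 (x axis, log scale) for the coding genes with a region, with 3 gene lists marked and the dashed line at 4 kb. Fusion targets such as HOXA9 (103 TPM, 26990 bp) and MEIS1 (55.7 TPM, 16888 bp) lie above most genes of the same TPM, and ribosomal protein genes lie to the right with widths near 2394 bp.

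Several further fusion targets joined high RNA to wide regions. PROM1, the gene of the stem cell antigen CD133, had 294, 283 and 296 TPM and 7554, 7443 and 7371 bp. FLT3, a receptor tyrosine kinase of early progenitors, had 247, 233 and 247 TPM and 7309, 7344 and 6935 bp. BCL2, the antiapoptotic gene, had 89.7 ± 7.33 TPM and 8519 ± 126 bp. HMGA2, an architectural chromatin protein, held 5159 bp at only 6.87 ± 0.143 TPM, and IGF2BP3, an RNA-binding protein of fetal tissue, 8961 ± 136 bp at 43.7 ± 1.19 TPM. Width therefore did not rank these genes by RNA: PROM1 gave several times the RNA of BCL2 from a narrower region.

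The fusion's own loci and their partners came next. KMT2A had 56.1, 59.5 and 61.2 TPM and 4922, 4711 and 4960 bp, and AFF1 had 192, 199 and 196 TPM and 7854, 8050 and 7721 bp, AFF1 being higher in both readouts in every library. Of 21 genes of KMT2A, its fusion partners and elongation factors, 19 reached 1 TPM, 20 held a region and 4 held one of 4 kb or more. For comparison, 87.5% of all coding genes at or above 1 TPM held a region, and 2.61% of all coding genes, silent ones included, held one of 4 kb or more. Among genes with a region at 30 to 100 TPM, 2 of 12 of the list were that wide, against 5.40% of coding genes. At 100 TPM or more it was 1 of 4, against 13.2%. MLLT10, another partner, held 4305 bp at 38.1 ± 1.31 TPM, while DOT1L held 2865 bp at 50.5 TPM and MEN1, the menin that tethers KMT2A, 1134 bp at 32.8 TPM. MLLT3, a frequent partner in other KMT2A leukaemias, had 0.00383 ± 0.00663 TPM and no region. MLLT6 was listed at 0.0442 TPM with 5321 bp, but it has a second copy in the annotation that may take its reads.

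Genes that write and erase the mark were nearly all read. Of 20 members of H3K4 methyltransferase complexes, 19 reached 1 TPM and held a region, PRDM9, the meiotic enzyme, being the exception at 0.00741 TPM. Among all coding genes at or above 1 TPM, 87.5% held a region. SETD1B held 7889 bp at 55.3 ± 1.16 TPM, KMT2D 5238 bp at 71.6 ± 3.93 TPM, HCFC1, a shared subunit, 5172 bp at 280 ± 3.14 TPM and KDM6A 4521 bp at 53.8 TPM. SETD1A, the paralogue of SETD1B, held 2251 bp at 85.1 TPM, so the paralogue with more RNA had the narrower region. Of 8 genes on the list of H3K4 demethylases and their partners, 7 reached 1 TPM, 6 held a region and 0 held one of 4 kb (2.61% of all coding genes did). KDM5B was at 0.116 ± 0.0247 TPM with 887 bp, while KDM1A, a demethylase of another family, had 136 TPM. Of the paralogues of KDM5B, KDM5C had 101 TPM with 2431 bp, and KDM5A had 67.2 ± 4.46 TPM with no region in the gene, the nearest called in all 3 libraries lying 70102 bp from its 5′ end.

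Among B-lineage genes the widest regions at an outer 5′ end belonged to transcription factors, not to IGLL1, the gene with most RNA. PAX5, the factor that commits cells to the B lineage (ENSG00000196092.14, chromosome 9, 36833269 to 37034268), had 348, 322 and 340 TPM and 18035, 18350 and 17843 bp. EBF1, which acts before it (ENSG00000164330.17, chromosome 5, 158695916 to 159099916), had 248, 247 and 234 TPM and 11795, 11823 and 11421 bp. IKZF1 and LEF1, 2 further lymphoid factors, held 10036 ± 167 and 9463 ± 166 bp at 160 and 570 TPM. CD79A, with more RNA than PAX5 in every library, held 1856 bp.

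Of 34 precursor B markers, 32 reached 1 TPM, 26 held a region and 10 held one of 4 kb or more, with medians of 122 TPM and 3348 bp. A region was held by 87.5% of all coding genes at or above 1 TPM, and one of 4 kb or more by 2.61% of all coding genes, silent ones included. Among genes with a region at 100 TPM or more, it was 9 of 19 of the list against 13.2% of coding genes. TCF3 and SOX4, both transcription factors, held 6714 and 6472 bp. IGLL1 and VPREB1, the surrogate light chain genes, held 5849 and 4133 bp at 1044 and 668 TPM. IRF8 and IKZF3, factors of later B cells, held 365 and 554 bp at 19.7 and 4.17 TPM, the narrowest of the list. Of those above 1 TPM without a region, ERG and CD22 (123 and 95.9 TPM) had one at a RefSeq start, of 5497 and 2046 bp, whereas FCRLA had none there. RAG1 and RAG2, the recombinase pair, held 1841 and 2391 bp at their outer ends, and a region of 11199 ± 60.3 bp overlapped both genes at no annotated outer 5′ end.

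**Figure D4:**
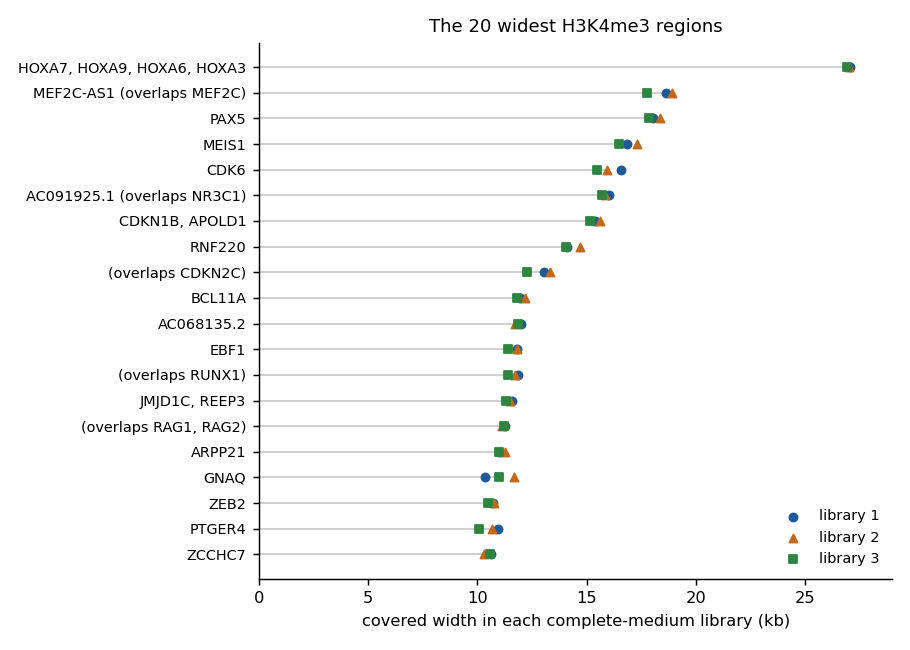
Covered width in kb (x axis) of the 20 widest regions in each of the 3 complete-medium libraries (markers), named by the coding genes whose outer 5′ end they hold, else by a noncoding 5′ end or the gene they overlap. The HOXA domain, at 26919 to 27043 bp, stands clear of MEF2C, PAX5, MEIS1 and CDK6, whose libraries lie between 15494 and 18903 bp.

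Other regions among the 20 widest belonged to genes outside both lists. NR3C1, the glucocorticoid receptor through which steroid treatment acts, had 283 ± 9.32 TPM, with a region of 15857 ± 158 bp inside the gene at a RefSeq start. CDKN1B, the cell cycle inhibitor p27, held 15387 ± 230 bp at 188 ± 8.91 TPM and shared it with APOLD1 at 5.67 ± 0.273 TPM. CDKN2C, the inhibitor p18 of CDK6, had 103 ± 5.15 TPM and a region of 12877 ± 546 bp at a RefSeq start. BCL11A, a lymphoid zinc finger factor, held 11979 ± 206 bp at 38.0 ± 0.734 TPM, and RNF220, a ubiquitin ligase, 14291 ± 355 bp at 65.1, 57.9 and 63.1 TPM. PTGER4, a prostaglandin receptor, held 10559 ± 438 bp at 91.4 ± 5.59 TPM, and ZCCHC7, a gene next to PAX5, 10499 ± 180 bp at 556 ± 17.7 TPM. A region with several 5′ ends carries a single width, so APOLD1 shows a wide region beside little RNA.

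Genes of other lineages were mostly low in both readouts. Of 18 mature B and plasma cell markers 6 reached 1 TPM and 7 held a region, of 25 T and NK markers 6 and 8, of 25 myeloid markers 8 and 4, and of 20 erythroid and megakaryocyte markers 3 and 1. Over all coding genes the shares were 52.7% and 54.6%. A few genes of these lists were high. The highest mature B and plasma marker had 160 TPM with a region of 2897 bp, and 1 at 30 to 100 TPM held 3619 bp. NKG7, a granule protein, had 82.5 ± 15.1 TPM and 1591 bp. ZAP70 and LCK, kinases of T-cell receptor signalling, had 62.2 ± 5.45 TPM with 1663 bp and 44.0 ± 3.88 TPM with 1130 bp. SPI1 (PU.1) had 83.3 ± 6.90 TPM and 2396 bp, CEBPA 15.7 ± 3.66 TPM and 3386 bp, and FUT4, whose product makes the CD15 antigen, 56.5 ± 7.21 TPM and 6113 bp. CD3D, CD3E and CD2, defining T-cell genes, had 0 counts, and ELANE and PRTN3 also read 0 but have second copies in the annotation. In these bulk samples a gene read in few cells and a gene read weakly in every cell cannot be told apart.

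Germline, developmental and tissue genes were low in both readouts with few exceptions. Of 22 germline genes 0 reached 1 TPM and 3 held a region, of 54 developmental regulators 3 and 6, and of 29 markers of non-blood tissues 1 and 3. The shares over all coding genes were 52.7% and 54.6%. WT1, a factor often expressed in acute leukaemia, had 13.6 ± 0.325 TPM and 4340 bp. MSX1, a homeobox gene, had 10.9 ± 0.148 TPM and 2086 bp. PRL, the gene of prolactin (ENSG00000172179.12, chromosome 6, 22287244 to 22302826), was the one tissue marker above 1 TPM, with 302, 322 and 316 TPM and 2093, 2209 and 1976 bp at its outer 5′ end, and no region at the RefSeq start in the table. DLX2, another homeobox gene, with 0.0831 TPM, held 995 bp.

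**Figure D5:**
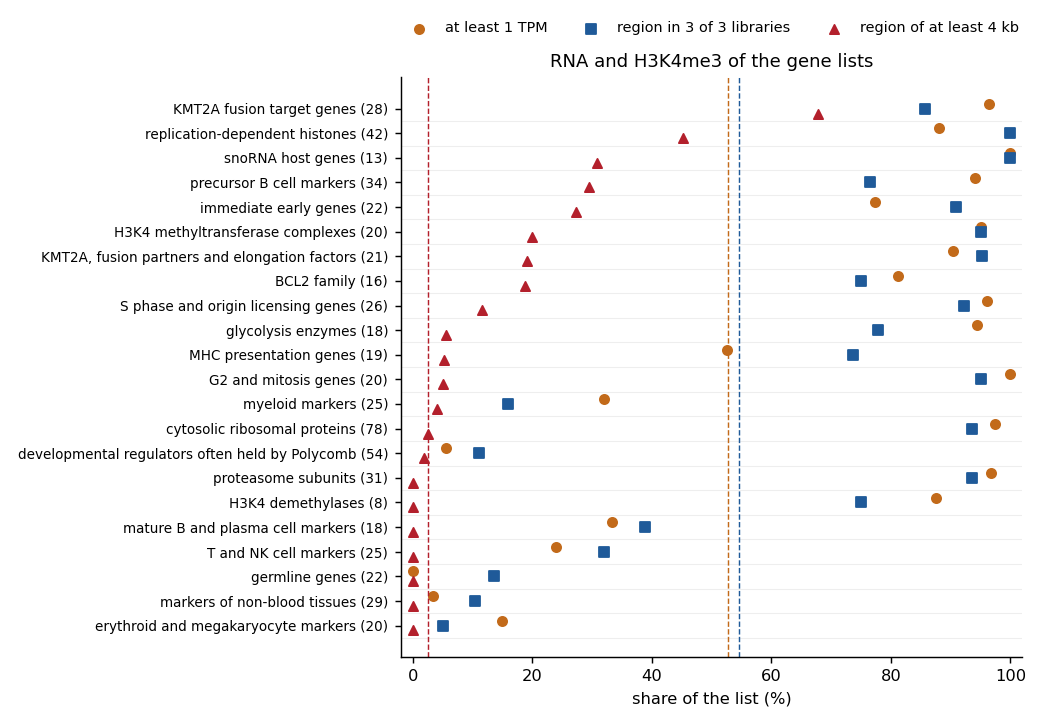
Share of each gene list (x axis, %, list size in brackets) with at least 1 TPM, with a region in all 3 libraries and with a region of at least 4 kb; dashed lines give the same shares over all coding genes, 52.7%, 54.6% and 2.61%. Fusion targets have the highest share at 4 kb (19 of 28), while ribosomal protein and proteasome genes reach high shares of RNA and regions with few at 4 kb.

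Most housekeeping genes had high RNA without a wide region, which was rare in general (2.61% of all coding genes at 4 kb or more). Among coding genes with a region at 100 TPM or more, 13.2% were at 4 kb or wider. In that bin it was 2 of 66 ribosomal protein and 0 of 18 proteasome genes, below that share. The S phase (2 of 19), G2 and mitosis (1 of 13) and glycolysis (1 of 8) genes lay near it. Of 78 cytosolic ribosomal protein genes, 76 reached 1 TPM and 73 held a region, with medians of 539 TPM and 2394 bp, but 2 were at 4 kb or more, RPL28 (5062 bp) and RPL39 (4351 bp). Of 31 proteasome genes, 29 held a region and 0 reached 4 kb. Of 26 S phase genes, 24 held a region and 3 were at 4 kb or more: RRM2, a ribonucleotide reductase subunit (4997 bp at 222 ± 7.60 TPM), CCNE2, a cyclin (4010 bp at 139 ± 4.10 TPM), and E2F2, which has a second copy in the annotation (6347 bp at 0.170 TPM). Of 20 genes of G2 and mitosis 19 held a region, with 1 at 4 kb, KIF11, the spindle kinesin (4392 bp at 291 ± 1.51 TPM). Among all coding genes, 87.5% at or above 1 TPM and 94.7% from 100 TPM held a region. In presence of a region these lists were thus near the general share. GAPDH, with 3735, 3257 and 3255 TPM, held 4135, 3776 and 3700 bp.

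The most abundant nuclear mRNAs were not alike. EEF1A1, the translation elongation factor, had 7236, 6690 and 6904 TPM and 5509, 5790 and 5680 bp. PTMA, the chromatin protein prothymosin alpha, had 4706 ± 105 TPM and 7110 ± 7.02 bp, and HNRNPA1, a splicing factor, 2783 ± 40.5 TPM and 6294 ± 469 bp. TMSB10, an actin-binding peptide of similar RNA (3141 ± 430 TPM), held 2785 ± 34.5 bp. The 13 mitochondrially encoded mRNAs, from a genome without histones, lay between 3725 and 25019 TPM and had no peak in any library.

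Wide regions with little RNA were found at the replication-dependent histone genes. All 42 held a region and 19 held one of 4 kb or more, over 10 separate regions, although their median was 3.12 TPM. Of all coding genes at 1 to 10 TPM, 75.5% held a region, and 2.73% of these regions were at 4 kb or more. HIST1H2BK had 77.1 ± 7.11 TPM and 4176 bp, HIST1H3J had 2.43 ± 0.340 TPM and 6488 bp. These mRNAs lack a poly(A) tail, and the labels do not give how RNA was selected. Immediate early genes also held regions at low RNA: 20 of 22 held one, with medians of 3.61 TPM over the list and 3071 bp over the 20. FOS had 1.06 ± 0.360 TPM and 2839 bp, NR4A1 had 2.19 ± 0.153 TPM and 2858 bp, JUN had 3.75 ± 0.535 TPM and 3416 bp, and EGR3 had 0.0184 ± 0.0183 TPM and 2237 ± 223 bp. The 6 at 4 kb or more were members with more RNA, from FOSL2 with 10.6 ± 0.586 TPM and 5578 bp to MYC with 275 ± 13.6 TPM and 6510 bp.

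Regions without RNA were examined gene by gene. Of 7427 coding genes under 0.1 TPM, 846 held a region. A second copy of the gene in the annotation was found for 294 of them, a 5′ end of a gene of at least 1 TPM in or within 1 kb of the region for 280, and exons shared by at least 50% with another gene for 275. None of these applied to 210 genes, whose regions had a median of 773 bp. The median was 1540 bp for all 846 and 1965 bp for genes at or above 1 TPM, neither group being filtered in this way. HJV, an iron sensor of liver and muscle, held 4590, 4849 and 4623 bp with 1, 2 and 0 counts. ESR2, an oestrogen receptor, held 2174, 2161 and 2219 bp with 3, 4 and 1 counts. ALOXE3, a skin lipoxygenase at 0.0658 TPM, and HES7, a segmentation clock repressor at 0.247 TPM, shared a region of 8652 ± 243 bp. Each of these peaks was called at a similar width in all 3 libraries.

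Of the genes of at least 1 TPM, 1245 had no region at the outer 5′ end in any library, and 61 more had one in 1 or 2 libraries. A RefSeq start was known for 962 of the 1245, and 573 of these held a region there. ACTG1, with 4748, 4003 and 4171 TPM, had none at the outer end and 8434 ± 204 bp at its RefSeq start, and S100A4, a calcium-binding protein with 719 ± 128 TPM, had 1951 bp there. ACTB, with 3103 ± 87.4 TPM and no RefSeq start in the table, had 2 regions within the gene. PCNA, the replication clamp and one of the 61, at 1510, 1333 and 1453 TPM, had 279, 317 and 0 bp in the region nearest its outer end and 3395 bp at a RefSeq start.

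For 426 of the 1245 genes the table listed no region called in all 3 libraries in the gene or within 1 kb of it, and 36 of these had at least 30 TPM. RPL24, a ribosomal protein gene, had 720, 680 and 692 TPM with the nearest such region 37306 bp away, and RACK1, a ribosome-bound scaffold, had 686, 570 and 598 TPM with 76826 bp. TRIM28, a corepressor, had 458 ± 42.2 TPM. Of the 426, 74 lay in 30 groups of neighbours within 100 kb of each other, with no like count made for expressed genes in general. Rows missing from the table used here would also give genes without a listed region, and whether the starts of the 426 carried the mark was not tested.

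ASNS, which encodes asparagine synthetase and whose low level is known to leave lymphoblasts dependent on outside asparagine (ENSG00000070669.17, chromosome 7, 97851677 to 97872542), was low in both readouts with asparagine present. It had 14, 6 and 16 counts, or 0.264, 0.114 and 0.304 TPM, no region at its outer 5′ end or at either of its 2 RefSeq starts, and the nearest region called in all 3 libraries was 98561 bp away. Exonic bases shared with another annotated gene make up 49.3% of it, so its count can be an underestimate. In both readouts it stood with ALB and the tissue markers of other lineages, not with the housekeeping genes.

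Sequence at the starts separated the classes more by region than by RNA. In the 300-base RefSeq windows (250 bases before and 50 after the start) the median number of CG was 27 for 7965 genes with RNA and a region at that start, 25 for 518 genes under 0.1 TPM with a region, 7 for 634 genes with RNA and no region, and 7 for 4708 genes with neither. Of 846 genes under 0.1 TPM with a region at the outer 5′ end, 210 had no second copy, expressed 5′ end nearby or shared exons. The 518 were not filtered in this way, so some may not be silent or may lie at the start of an active neighbour. With that limit, genes under 0.1 TPM with a region, such as SOX6, were in the median near the active genes. Expressed genes without one, such as FCRLA, were in the median near the genes with neither. The 26 of these with at least 30 TPM and no region anywhere in the gene differed from the rest, with a median of 20 CG, and 88.5% of them had 10 or more. Among genes of at least 1 TPM the share with a region was 39.2% at 0 to 4 CG, 69.6% at 5 to 9, 86.5% at 10 to 14, 95.2% at 15 to 19, 97.0% at 20 to 29 and 97.4% at 30 or more. Among genes under 0.1 TPM the share rose over the same bins from 0.933% to 3.52%, 11.3%, 13.8%, 21.9% and 20.5%, so most silent starts had none in each bin.

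Short motifs were counted in the same windows on both strands. TATAAA, the core of a TATA box, was in 4.97% of starts with RNA and a region, 6.18% of silent starts with a region, 11.5% of starts with RNA and no region and 18.1% of those with neither, against 9.72% of all 15321 windows. CCGGAAG, a core of ETS family sites with a CG of its own, was in 22.3%, 17.6%, 6.15% and 3.87% in that order, against 14.3% of all. CCAAT was in between 34.1% and 38.3% of each class, against 36.6% of all. The 434 starts with regions of at least 4 kb had a median of 27 CG, as did active starts in general, but fewer held CCGGAAG (11.1%) and more held TATAAA (11.3%). The 724 starts with regions under 1 kb also held CCGGAAG in few cases (9.53%), with TATAAA in 7.04%. Of the 26 starts above 30 TPM without a region, 42.3% held CCGGAAG and 3.85% TATAAA. PAX5 holds TATAAA in the stretch shown and MEIS1 holds CCAAT and CCGGAAG. By CG count the starts of wide regions were not set apart. The matches describe letters, and no factor's binding was measured.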

How the data were processed

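RNA values are raw counts for 66738 annotated genes, as the authors deposited them. According to the submitters' processing notes, reads passed through bcl2fastq, STAR 2.7.2a and Subread 1.6.5 (featureCounts) against hg38. How strand and multi-mapping reads were handled is not given in the sources used here: antisense and overlapping genes are less certain, as are 1078 coding genes with a same-named copy elsewhere in the annotation. For H3K4me3 the authors deposited peak positions per library, merged into 19279 regions, without heights or read numbers. The notes name Bowtie2 2.4.4 for alignment, Picard 2.18.26, and MACS2 2.2.7.1, again with hg38. Neither the peak threshold nor the role of the inputs is stated there. Each line has 13 fields beneath 12 column names because the 4th repeats the region, so the last 9 were taken as libraries, and "untreated" columns as complete medium, which the sample labels name.

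TPM was computed from counts and the exonic lengths in the deposited table. Among regions within 1 kb of the 5′ end the nearest was assigned, in Python 3.11.15 (pandas 2.3.3, numpy 2.4.6, scipy 1.17.1, matplotlib 3.10.9). Log2 values had 0.1 TPM added. No groups were compared, so no test was run, and correlations across genes carry no p. The depth given in the report limits low values: genes near 0.1 TPM rest on a few counts. The functions were tested on simulated data with known answers. RefSeq starts and windows (GRCh38.p14) were matched by symbol and chromosome for 15321 coding genes.

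Members, the 23 gene lists (602 entries) and thresholds were chosen with earlier results of these data known. The 4 kb bound, near the width of the widest 5% of regions at coding genes (3961 bp), and the sequences and motifs shown were chosen after values were seen. Named were the 10 genes of highest TPM, the 12 with the widest regions, the 10 of highest TPM with no region, the 10 of widest region under 0.1 TPM, up to 4 list members of each kind, 6 with a region in 1 or 2 libraries, noncoding genes by the same ranks and 30 fixed genes, of which some are not reported here. Other members of lists, further genes of the widest regions, HOXA neighbours and single genes such as HJV or TRIM28 were added after their values were seen. Alternatives were windows, library and width minimums, RefSeq starts, RNA thresholds, CPM, edgeR 4.0.16 and DESeq2 1.42.0 size factors (R 4.3.3), gene subsets and leaving out each library.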

Additional observations from a re-analysis of the deposited data

How the results depend on the processing

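No alternative reversed a direction. Most moved a share or a correlation by more than its SD over libraries, which was small, and the cause was not tested except where fewer genes or another start define the setting. The share of coding genes with a region (54.6%) was 53.7% and 55.5% with windows of 500 and 2000 bp, 55.4% with a region in at least 1 of 3 libraries, 53.2% with at least 500 bp in each, 60.9% at RefSeq starts, 47.9% for genes with no other coding 5′ end within 2 kb and 24.98% over all annotated genes. In the order of those 7 settings the share among genes with RNA (87.5%) was 86.6%, 88.4%, 88.1%, 86.5%, 94.4%, 84.9% and 70.6%, and among genes without RNA (17.9%) it was 17.1%, 18.9%, 19.0%, 16.04%, 17.6%, 11.9% and 9.86%. RNA thresholds of 0.5 and 5 TPM gave 85.6% and 91.0% with RNA and 15.6% and 25.6% without, and 1 CPM gave 87.4% with RNA. For TPM and width, Spearman's rho (0.413) was 0.409, 0.416, 0.427, 0.387, 0.447, 0.4995 and 0.290 in that order, 0.435 with CPM, 0.508 for the sole coding 5′ end of a region, 0.380 at 1 TPM or more, 0.719 with width 0 where there was no region and 0.410 with outer spans. Leaving out genes with a copy elsewhere, chosen after seeing the data, gave 55.2%, 15.4% without RNA and rho 0.444, and also leaving out genes sharing at least 50% of exonic bases gave 55.3%, 87.7%, 12.1% and rho 0.470. Leaving out 1 library at a time gave 54.7% to 54.8% with a region, 87.5% to 87.7% with RNA, 17.8% to 18.3% without, and rho 0.412 to 0.417. Coverage at 1 kb into genes of 100 TPM or more (87.6%) was 87.5% to 87.8% without 1 library, and 88.1% without neighbouring 5′ ends. In every setting tried for the lists, 14 of the 21 with coding members on these chromosomes had a larger share with a region than all coding genes. All 207 TPM values of named genes moved by less than their SD under TMM or DESeq2 factors, and 20 of 147 widths moved by more with outer spans and 1, that of MZB1, from 2897 to 6374 bp with summed regions. No paired analysis was possible because 1 condition was described and no groups were compared.

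Limits: 3 libraries of each kind from 1 line bound the precision, widths depend on a peak threshold not known here, and regions at an unused annotated start or shared by several genes blur single genes.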

Other observations

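The share of lncRNA genes with a region lay below that of coding genes in each of the 6 TPM bins. Of 16763 lncRNA genes 3043 (18.2%) held a region, 7.77% below 0.1 TPM, 38.8% from 0.1 to 1 TPM, 48.2% at 1 to 10 TPM, 47.8% at 10 to 30 TPM, 65.5% at 30 to 100 TPM and 83.3% of the 12 genes at or above 100 TPM. MALAT1, a nuclear lncRNA, had 353, 435 and 398 TPM and 7089, 7180 and 6652 bp. AC002454.1, a lncRNA that starts beside CDK6 on the opposite strand, had 501 ± 46.0 TPM in the CDK6 region, and without a known strand setting its reads cannot be told from those of CDK6 where they overlap. All 13 snoRNA host genes held a region, with medians of 49.4 TPM and 3458 bp, and SNHG6 had 455 ± 42.9 TPM with 3416 bp.

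Of the genes named by rank, 2 were V segments of antigen receptor loci with RNA and a narrow region. TRDV2, a T-cell receptor delta segment, had 688, 715 and 697 TPM and 643, 625 and 674 bp, and IGLV4-3, a lambda light chain segment, had 254 ± 11.1 TPM and 723 ± 71.1 bp. Both were steady over the libraries, in a line whose CD3 genes were at or near 0 counts.

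Regions away from coding 5′ ends were many and in the median narrower. Of the 14220 regions called in all 3 libraries, 9311 (65.5%, median 1833 bp) lay at a coding 5′ end, 1175 (8.26%, 1346 bp) at the 5′ end of another gene only, 2464 (17.3%, 1133 bp) over part of a coding gene at no 5′ end and 1270 (8.93%, 758 bp) outside coding genes. In the last 3 kinds 45, 72 and 14 regions were at 4 kb or more, among them those of MEF2C, NR3C1, CDKN2C and RUNX1, one of 11851 ± 155 bp on chromosome 2 at the lncRNA AC068135.2 and one of 9669 ± 592 bp inside KLRK1, a lymphocyte receptor gene with 10.3 ± 0.931 TPM.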
